A study of Mus musculus with 5 samples.

Results

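The genes described here make, move, and break down γ-aminobutyric acid (GABA), and were set by a list of 8 mouse symbols matched by Ensembl identifier to the rows of a count table of 20224 genes. Values are given for 4 of the 8 genes, *Gad2*, *Abat*, *Aldh5a1*, and *Aldh9a1*, all of which passed the filter on low counts. *Gad1*, *Slc32a1*, *Slc6a11*, and *Slc6a13* are not analysed here. *Gad2* was also among the genes the study picked from these same libraries, so its values are not independent evidence of its direction. By qRT-PCR on separately dissected sympathetic chains, the study also reported higher *Gad2* in *Hif1aCKO* than in control embryos. That RNA came from dissected chains, not from sorted cells. The study also reported higher *Gad2* in control embryos exposed to maternal diabetes, and no additive effect of diabetes with *Hif1a* deletion.

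The table holds bulk RNA-seq counts from sympathetic neurons of mouse embryos at E14.5, from non-diabetic pregnancies, each library made from 100 sorted cells. There were 2 control libraries, numbered 5 and 6, and 3 *Hif1aCKO* libraries, numbered 3, 4, and 5, and values by library are given in this order. *Hif1aCKO* embryos were Isl1 tm1(cre)Sev/+;Hif1a loxP/loxP, in which *Isl1*-driven Cre removes exon 2 of *Hif1a*, and they carried the tdTomatoAi14 and Prph-eGFP reporters. The sorted controls carried the same reporters and Isl1Cre with Hif1a loxP/+, so both groups had 1 *Isl1* allele taken up by Cre and at least 1 floxed *Hif1a* allele. By design, Cre therefore also acts on the 1 floxed *Hif1a* allele of the sorted controls. The contrast is between deletion of both copies and deletion of 1 copy, not between deleted and intact *Hif1a*. The series text also describes controls without Isl1-Cre, in which tdTomato would stay off. Cre acts wherever *Isl1* is or was on, which is not only in sympathetic neurons, and cells positive for both reporters were taken. The methods count 2 control and 3 *Hif1aCKO* embryos, as many as there are libraries.

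Total counts ranged from 8254211 to 9700887. *Hif1a* itself had 1708 to 2003 counts in control and 1760 to 2562 in *Hif1aCKO* libraries, and since counts are summed over all exons this does not show whether exon 2 was lost. All 15 markers of sympathetic neurons were present, with a summed normalized count of 106640 to 128936 in control and 92039 to 96104 in *Hif1aCKO* libraries. Markers of Schwann cell precursors (5 of 8 with values) summed to 30.6 to 55.2 in control libraries and to 1199 in *Hif1aCKO* replicate 3, where *Fabp7* had 926 counts, against 46.9 and 51.6 in the other *Hif1aCKO* libraries. *Xist*, the RNA of the inactive X chromosome, had 3974 counts in control replicate 5, 4597 in *Hif1aCKO* replicate 3, and 1 to 3 in the other libraries.

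GABA is made from glutamate by glutamate decarboxylase, which has 2 forms. GAD67, the product of *Gad1*, is mostly cytosolic, and GAD65, the product of *Gad2*, sits largely on vesicle membranes of nerve terminals. *Slc32a1* loads GABA into synaptic vesicles, and plasma membrane transporters such as *Slc6a11* and *Slc6a13* take it back up. In mitochondria, GABA transaminase (*Abat*) turns GABA into succinic semialdehyde, and succinic semialdehyde dehydrogenase (*Aldh5a1*) oxidizes this to succinate, which enters the tricarboxylic acid (TCA) cycle. This detour is called the GABA shunt. A second source of GABA is putrescine, through an aldehyde that *Aldh9a1* oxidizes, and the same enzyme serves carnitine synthesis. Sympathetic neurons mainly release noradrenaline rather than GABA.

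The sequence upstream of the start of transcription is shown for the measured genes with a RefSeq promoter window (GRCm38.p6, 300 bases each, 3 of 4 genes, not *Abat*), because HIF-1, the factor whose subunit was deleted, binds DNA at the short core ACGTG or GCGTG. Capitals mark this core on either strand. The stretches end before the first annotated start, on chr2:22622077-22622204 (plus strand) for *Gad2*, chr13:24937662-24937911 (minus strand) for *Aldh5a1*, and chr1:167349741-167349990 (plus strand) for *Aldh9a1*.
Gad2: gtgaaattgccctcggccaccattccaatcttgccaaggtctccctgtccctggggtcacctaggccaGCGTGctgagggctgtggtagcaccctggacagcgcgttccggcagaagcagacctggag
Aldh5a1: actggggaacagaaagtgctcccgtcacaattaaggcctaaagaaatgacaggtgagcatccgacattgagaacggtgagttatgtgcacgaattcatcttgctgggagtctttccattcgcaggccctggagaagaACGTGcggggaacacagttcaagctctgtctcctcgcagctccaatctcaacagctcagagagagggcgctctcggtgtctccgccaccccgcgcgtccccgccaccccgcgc
Aldh9a1: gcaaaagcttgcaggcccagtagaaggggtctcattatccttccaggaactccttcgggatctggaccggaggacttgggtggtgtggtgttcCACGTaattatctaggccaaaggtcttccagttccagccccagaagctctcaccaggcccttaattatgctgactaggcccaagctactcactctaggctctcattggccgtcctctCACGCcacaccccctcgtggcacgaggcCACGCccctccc

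Within the whole 300-base windows the HIF-1 core occurred 2 times for *Gad2*, 1 time for *Aldh5a1*, and 3 times for *Aldh9a1*. The core is common, present in 43.8% of 32851 promoter windows of the same length. The GATA core AGATAA or TGATAA, which 18.6% of windows hold, occurred in the *Aldh9a1* window only among these 3, and the GC box GGGCGG (35.7% of windows) in none of them. These are matches of letters on both strands and do not show binding.

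The genotype difference was tested by the quasi-likelihood method of edgeR for each of 15032 genes kept by the filter on low counts. Calling a gene required an adjusted p-value (Benjamini-Hochberg) below 0.05, an absolute log2 fold change above 0.3, and an average of 50 or more normalized counts. None of the 4 GABA genes was called, against a background of 0% of all genes tested. At an unadjusted p-value under 0.05, *Gad2* and *Aldh5a1* were higher in *Hif1aCKO* neurons, where 3.83% of all genes tested were higher and 3.85% lower at that level. *Abat* and *Aldh9a1* had near-equal means in both genotypes. The median log2 fold change of all genes tested was 0.01.

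**Figure D1:**
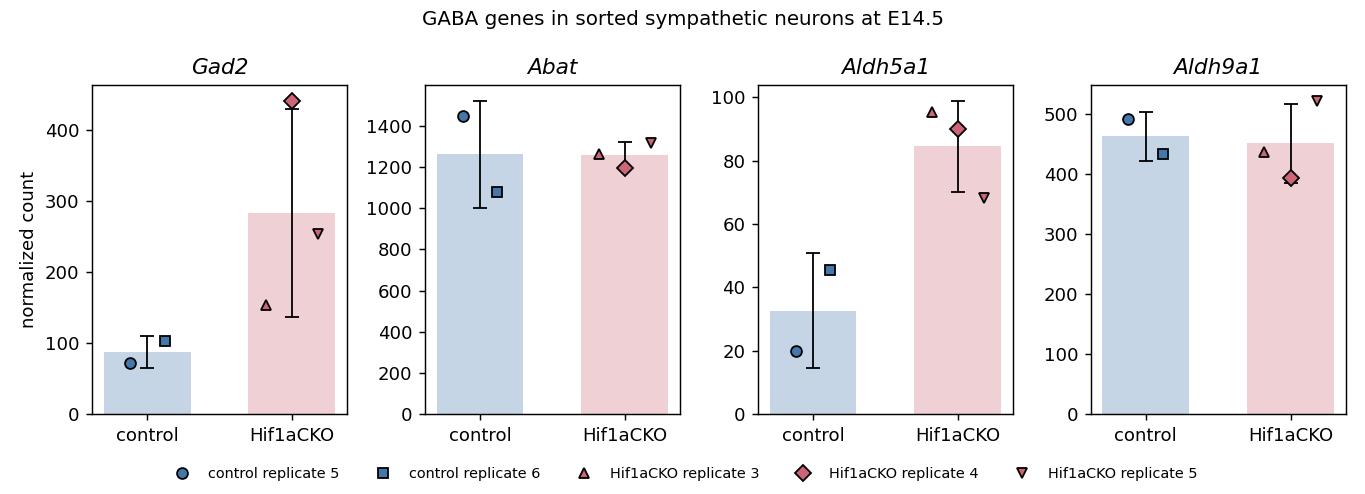
Normalized counts (y axis, from 0) of the 4 measured GABA genes in control and *Hif1aCKO* libraries. Points are libraries, bars are group means, and error bars are SD (n = 2 and n = 3); for *Gad2* and *Aldh5a1* every *Hif1aCKO* point lies above both control points, whereas for *Abat* and *Aldh9a1* the points of the groups overlap.

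*Gad2* (ENSMUSG00000026787, chromosome 2, 22622205 to 22693874, plus strand, 16 merged exons) encodes the vesicle-associated form of glutamate decarboxylase. Its normalized counts, scaled for library size, were 71.9 and 103 in the controls against 153, 441, and 254 in the *Hif1aCKO* ones. Every *Hif1aCKO* library lay above both control libraries, and replicate 4 stood highest. The same was true of 12.9% of all genes tested, and a further 12.9% had all *Hif1aCKO* libraries below both controls.

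The group means of *Gad2* were 87.4 ± 22.0 (SD, n = 2) and 283 ± 146 (SD, n = 3), a ratio of 3.24. *Hif1aCKO* libraries differed among themselves by up to 2.88-fold and control libraries by 1.43-fold. The log2 fold change was 1.69 (standard error 0.47, 95% confidence interval 0.61 to 2.78), with an unadjusted p of 0.00693 and an adjusted p of 0.598 in edgeR. This p-value ranked 162 of 15032. DESeq2, which called 0.388% of the 15477 genes it gave an adjusted p-value, gave *Gad2* an adjusted p of 0.056 and did not call it. The study, with an earlier DESeq2 version, reported *Gad2* as upregulated. The adjusted p ranged from 0.056 to 0.901 over the other tools, filters, and scalings and over leaving out each library except control replicate 6, without which it was 0.999 and the log2 fold change 1.97. In bulk libraries, more cells with *Gad2* RNA and more *Gad2* RNA per cell cannot be told apart.

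Within each genotype the library with *Xist* counts had the lower or lowest *Gad2* count. Between the libraries with *Xist* counts the log2 ratio of *Gad2* was 1.09, and between those without it was 1.76. *Hif1aCKO* replicate 3, which had the counts of Schwann cell precursor markers, was the lowest of its group, and without it the log2 fold change of *Gad2* was 1.99. Without *Hif1aCKO* replicate 4, the highest library, it was 1.22. The part of the *Xist* difference and of Schwann cell precursors in these values was not tested.

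*Abat* (ENSMUSG00000057880, chromosome 16, 8513429 to 8621568, plus strand) encodes the enzyme that starts GABA breakdown. Its normalized counts were 1447 and 1078 in the controls against 1262, 1197, and 1319 in the *Hif1aCKO* ones. All *Hif1aCKO* values fell between those of the control libraries. The means were 1262 ± 261 (SD, n = 2) and 1259.6 ± 61.1 (SD, n = 3). The log2 fold change was -0.003 with a 95% confidence interval from -0.40 to 0.40 (edgeR adjusted p = 1), and its sign changed between settings.

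*Aldh5a1* (ENSMUSG00000035936, chromosome 13, 24907579 to 24937661, minus strand, 10 exons) encodes the next enzyme of the shunt, which makes succinate. It had 19.8 and 45.4 normalized counts in the controls against 95.4, 89.9, and 68.1 in the *Hif1aCKO* ones. All *Hif1aCKO* libraries again lay above both controls, at counts that were the lowest of the 4 genes. The means were 32.6 ± 18.1 (SD, n = 2) and 84.5 ± 14.4 (SD, n = 3), a ratio of 2.59.

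For *Aldh5a1* the log2 fold change was 1.36 (standard error 0.54, 95% confidence interval 0.13 to 2.60), with an unadjusted p of 0.034 and an adjusted p of 0.621 in edgeR and an adjusted p of 0.444 in DESeq2. The control libraries differed from each other by 2.30-fold, and the value moved with the control used. Without control replicate 5 the log2 fold change of *Aldh5a1* was 0.89 (unadjusted p = 0.181 from the same test), and without control replicate 6 it was 2.08. Between the libraries with *Xist* counts its log2 ratio was 2.27, and between those without it was 0.80. The gene shares 14.1% of its exonic bases with 4932702P03Rik and 3.59% with 9330162012Rik on the opposite strand, and no source says that counting used strand. These neighbours had 1 to 14 and 0 to 14 counts, with the 14 in *Hif1aCKO* replicate 3 for both, and their part in the *Aldh5a1* counts was not tested.

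*Aldh9a1* (ENSMUSG00000026687, chromosome 1, 167349991 to 167368532, plus strand) encodes the aldehyde dehydrogenase of the putrescine route. Its normalized counts were 491 and 433 in the controls against 436, 393, and 522 in the *Hif1aCKO* ones. The groups overlapped, with means of 462 ± 40.6 (SD, n = 2) and 450.5 ± 65.2 (SD, n = 3). The log2 fold change was -0.04 with a 95% confidence interval from -0.51 to 0.44 (edgeR adjusted p = 0.984).

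**Figure D2:**
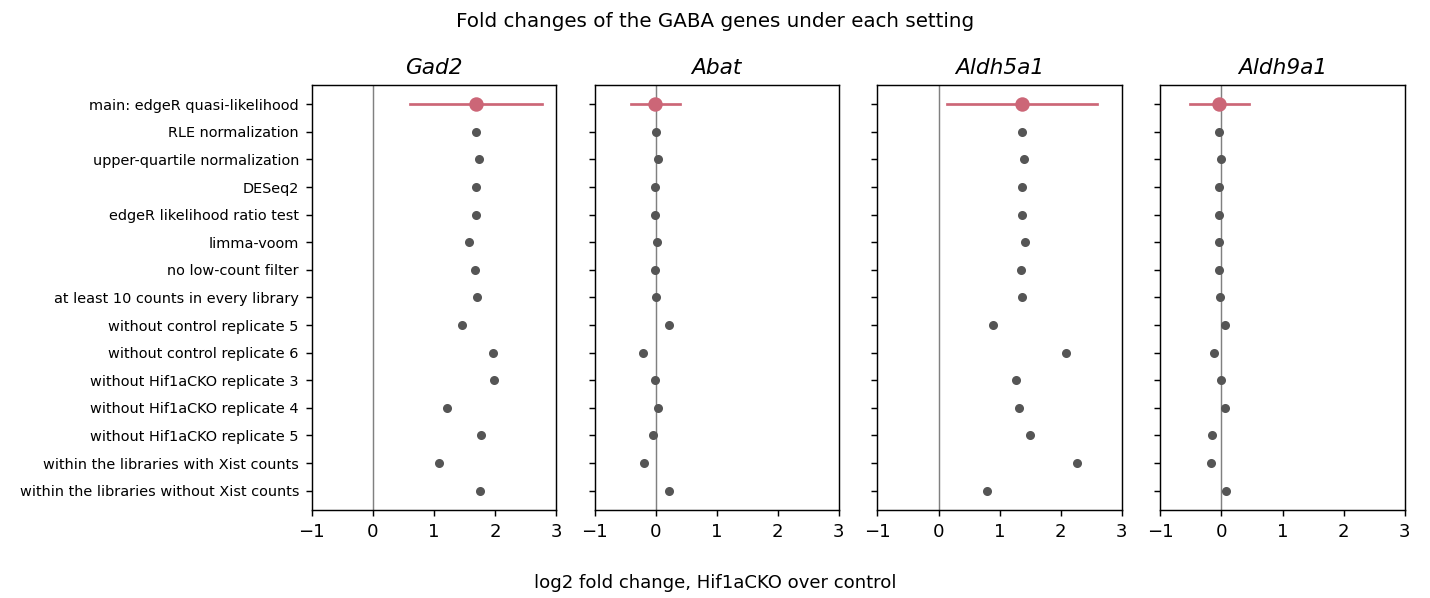
Log2 fold change (x axis, *Hif1aCKO* over control) of each measured GABA gene under the main test and each alternative (y axis). The red line is the 95% confidence interval of the main test. *Gad2* and *Aldh5a1* stay above 0 in all settings shown, from 1.09 to 1.99 and from 0.80 to 2.27. As every *Hif1aCKO* library lay above both controls for these genes, leaving out a library could not change their direction. *Abat* and *Aldh9a1* lie on both sides of 0.

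To compare genes with each other, counts were divided by the length of the merged exons and by the effective library size, which gives CPM per kilobase of exon. On this scale the order was *Abat*, *Aldh9a1*, *Gad2*, and *Aldh5a1* in all 5 libraries. *Abat* had a level of 18.6 ± 3.85 (SD, n = 2) in controls and 18.6 ± 0.902 (SD, n = 3) in the *Hif1aCKO* group, and *Aldh9a1* had 15.6 ± 1.37 and 15.2 ± 2.20 in the same order. Within a library *Abat* was 1.09 to 1.33 times *Aldh9a1*, and across libraries the levels of these neighbours overlapped, from 15.9 to 21.3 and from 13.3 to 17.6.

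The level of *Gad2* was 1.70 ± 0.428 (SD, n = 2) in the controls against 5.50 ± 2.84 (SD, n = 3) in the *Hif1aCKO* libraries. *Aldh9a1* was 9.18 times as high as *Gad2* in control means and 2.77 times in *Hif1aCKO* means. *Aldh5a1* was lowest, with levels of 0.660 ± 0.367 and 1.71 ± 0.292, and within a library *Gad2* was 1.54 to 4.72 times as high. The *Gad2* and *Aldh5a1* levels overlapped across libraries, since the highest *Aldh5a1* level of 1.93 was above the lowest *Gad2* level of 1.40. Of the summed level of the 4 genes, *Gad2* made up 3.52% and 5.99% in the controls against 7.79%, 20.8%, and 11.4% in the *Hif1aCKO* ones.

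**Figure D3:**
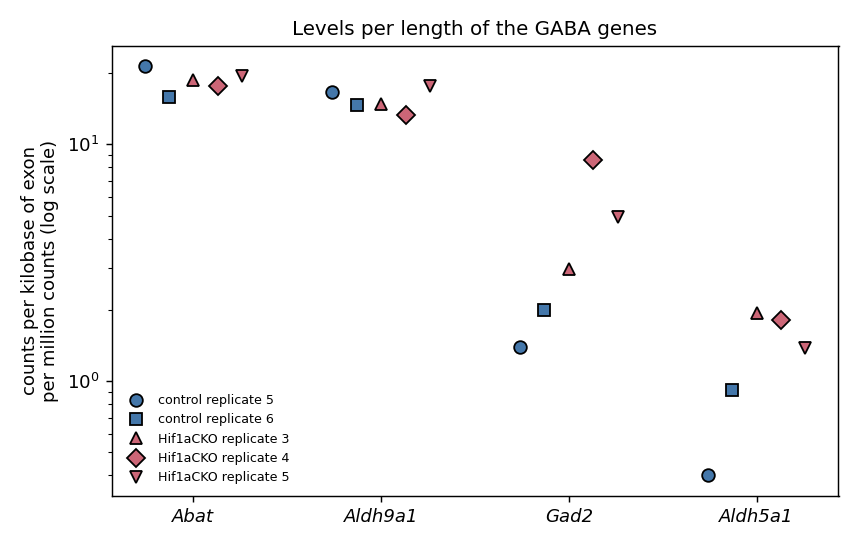
Levels of the measured GABA genes per length (y axis, CPM per kilobase of exon, log scale) with each library as a symbol, blue for control and red for *Hif1aCKO*. *Abat* and *Aldh9a1* lie between 13.3 and 21.3 in both genotypes, and *Gad2* and *Aldh5a1* lie below them, with the red symbols above the blue ones.

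Ratios within a library need no scaling between libraries. *Gad2* stood at 6.55% and 12.6% of the *Abat* level in the controls against 16.0%, 48.6%, and 25.4% in the *Hif1aCKO* ones. The difference between genotype means of the log2 ratio was 1.57, and the exact permutation test over the 10 assignments of genotypes to libraries gave p = 0.2, two-sided, where the smallest possible p is 0.1. *Gad2* relative to *Aldh9a1* differed by 1.63 on the log2 scale (exact permutation p = 0.2). *Aldh5a1* stood at 1.88% and 5.79% of the *Abat* level in the controls against 10.4%, 10.3%, and 7.08% in the *Hif1aCKO* ones, a log2 difference of 1.47 with the smallest exact permutation p of 0.1. The ratio of *Gad2* to *Aldh5a1* overlapped between genotypes, with a log2 difference of 0.11 (exact permutation p = 0.9). Adjusted over these 4 ratios, the exact permutation p was 0.267 for 3 of them and 0.9 for the last.

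The library pattern of *Aldh5a1* was nearer to that of *Gad2* than were those of the other measured GABA genes. Within the *Hif1aCKO* group, though, replicate 3 was the highest library for *Aldh5a1* and the lowest for *Gad2*. The root mean square difference from *Gad2* over the 5 libraries, in log2 units after each gene was centred on its mean, was 0.573 for *Aldh5a1*, 0.968 for *Abat*, and 0.989 for *Aldh9a1*, and its median over all other genes was 1.004. Of the 15031 other genes, 242 lay within 0.5 of *Gad2*, nearer than *Aldh5a1*. The 5 nearest genes were *Gm44090* (0.149), *Ssc5d* (0.221), *Gm12655* (0.228), *Gm12120* (0.238), and *Gm44616* (0.240). Their normalized counts lay between 3.12 and 79.9, so that few reads stand behind these patterns.

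The genes around this pathway were grouped in lists by their role, and 56 of them were tested. Their median log2 fold change was -0.06, with 22 above 0 and 34 below. An unadjusted p-value under 0.05 was reached by 2 higher and 7 lower genes, against 3.83% and 3.85% of all genes tested, and groups did not overlap for 3 higher and 13 lower genes, against 12.9% each way. None was called by edgeR, and DESeq2 called *Slc7a11* and *Gata2*.

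**Figure D4:**
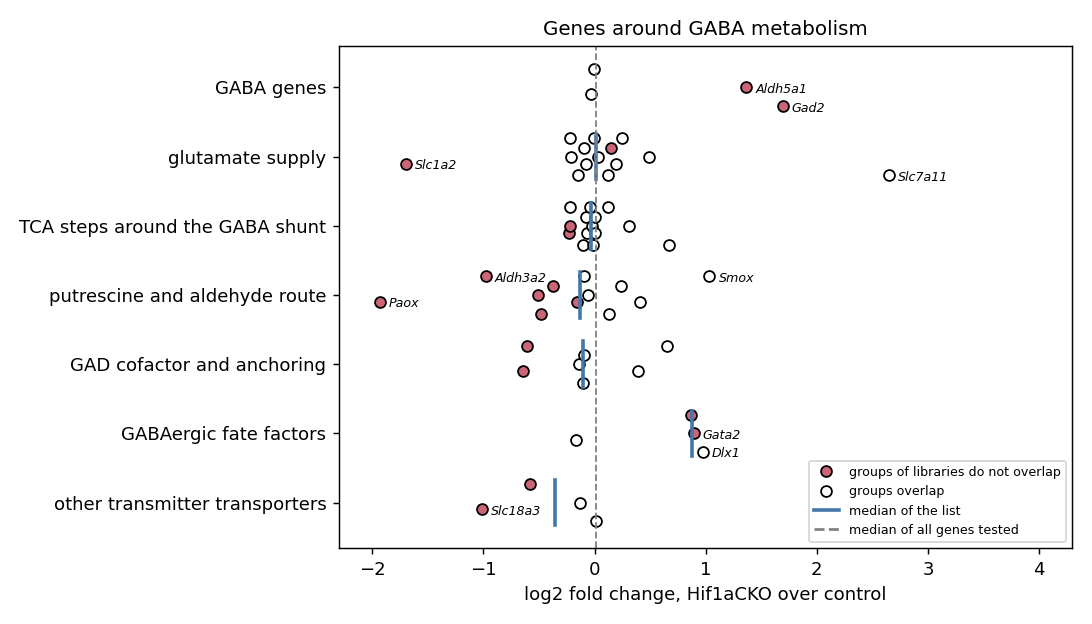
Log2 fold changes (x axis, *Hif1aCKO* over control) of the measured GABA genes and of tested genes in lists around them (y axis). Filled points are genes whose libraries do not overlap between genotypes, blue lines are list medians, and the dashed line is the median of all genes tested, 0.01; 6 of the 12 tested genes of the putrescine and aldehyde route are filled, all to the left, where 12.9% of all genes tested had all *Hif1aCKO* libraries below both controls.

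Genes that supply glutamate to GAD had no common direction, with 7 of 14 higher and 7 lower and a median log2 fold change of 0.01. *Glud1*, which feeds glutamate into the TCA cycle, had overlapping groups and a log2 fold change of -0.07. *Slc7a11*, which exports glutamate in exchange for cystine, had the largest log2 fold change of the list, 2.65 (standard error 0.82), with an adjusted p of 0.599 in edgeR and 0.0250 in DESeq2. Its normalized counts were 35.4 and 50.1 in the controls against 421, 340, and 48.7 in the *Hif1aCKO* ones, so that replicate 5 lay within the control range. *Slc1a2*, a glutamate uptake carrier, had 4.29 to 4.99 normalized counts in *Hif1aCKO* libraries against 12.5 and 18.6 in controls. *Got2*, *Glul*, and *Asns* had log2 fold changes of 0.14, 0.20, and -0.22.

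Among enzymes of the TCA steps that the GABA shunt bypasses or joins, 5 of 14 were higher and 9 lower, none at an unadjusted p-value under 0.05 in edgeR's test, and 2 had all *Hif1aCKO* libraries below both controls, a share near the 12.9% of all genes tested. *Ogdh*, a subunit of the 2-oxoglutarate dehydrogenase that the shunt bypasses, had a log2 fold change of -0.22, and *Sucla2* and *Sdha*, which make and use succinate, had -0.23 and -0.22. *Suclg2* (0.67) and *Akr7a5* (0.31), which reduces succinic semialdehyde, overlapped between genotypes.

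In the putrescine and aldehyde route, 4 of 12 tested genes were higher and 8 lower, with a median log2 fold change of -0.13. *Hif1aCKO* libraries lay below both controls for 6 of them, against 12.9% of all genes tested, and 4 were lower at an unadjusted p-value under 0.05, against 3.85%. These were *Maoa*, a monoamine oxidase that also degrades noradrenaline (log2 fold change -0.48), *Azin1*, which spares ornithine decarboxylase from breakdown (-0.51), *Paox*, a polyamine oxidase (-1.93), and *Aldh3a2*, a fatty aldehyde dehydrogenase (-0.98), with adjusted p-values from 0.621 to 0.627 in edgeR's test. *Maoa* had 7749 and 9586 normalized counts in the controls against 7556, 4967, and 6128 in the *Hif1aCKO* ones. *Paox* had only 42.7 and 63.1 in the controls against 13.9, 4.99, and 22.4, an average below that required for a call. *Smox*, another polyamine oxidase of the list, went the other way, with a log2 fold change of 1.03 and overlapping groups. *Maob*, the isoform that degrades putrescine derivatives in glia, had a log2 fold change of -0.37 (unadjusted p = 0.0578 from edgeR's test).

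Of the enzymes that provide or recycle pyridoxal phosphate, the cofactor of both GAD and GABA transaminase, *Pdxk* had a log2 fold change of 0.39 and *Pdxp* of 0.65, and both overlapped between genotypes. *Zdhhc13*, a palmitoyltransferase related to the enzyme that anchors GAD65 to membranes, had 565 and 620 normalized counts in controls and 389, 412, and 364 in *Hif1aCKO* libraries (log2 fold change -0.61, adjusted p = 0.599 from edgeR's test). *Zdhhc17*, the enzyme that anchors GAD65, had overlapping groups and a log2 fold change of -0.10. *Dnajc5*, a vesicle chaperone, had a log2 fold change of -0.14.

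Transcription factors that direct GABAergic fate in the central nervous system had values for 6 of 17 genes, of which 4 were tested. *Gata2*, also a factor of developing sympathetic neurons and also picked by the study from these libraries, had 869 and 705 normalized counts in the controls against 1245, 1546, and 1594 in the *Hif1aCKO* ones. Its log2 fold change was 0.89 (standard error 0.19), with an adjusted p of 0.586 in edgeR and 0.00324 in DESeq2. *Gata3*, another factor of sympathetic neurons, had a log2 fold change of -0.17, and its groups overlapped. *Dlx1*, a factor of forebrain interneurons, had 0 to 42 counts and overlapped between genotypes.

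Of the list of other carriers that move GABA across the plasma membrane, 1 gene was tested. This was *Slc6a6*, a taurine carrier that also takes GABA, with 905 to 1186 normalized counts and a log2 fold change of -0.03 (adjusted p = 0.985 from edgeR's test).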

How the data were processed

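The authors trimmed reads (cutadapt 1.18), removed ribosomal and vector sequences (Bowtie 1.2.2), mapped them to GRCm38 with STAR 2.7.0c, and counted reads per gene with default settings and left out multi-mapping reads. What they deposited are raw counts, not normalized, for 5 libraries of 8254211 to 9700887 counts. Gene names, positions, and exon lengths came from GENCODE M21 (GRCm38), not the release the authors used, and 29 identifiers had no entry there.

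Counts were fitted as deposited with edgeR 4.0.16 (filterByExpr, TMM factors, estimateDisp, quasi-likelihood test) in R 4.3.3, with genotype as the only term, and p-values were adjusted over all 15032 genes kept. Normalized counts were divided by effective library size and multiplied by its mean. Standard errors from edgeR were derived as the absolute log2 fold change divided by the square root of the test's F statistic. Confidence intervals used these standard errors and the degrees of freedom of the fit. The fits were tested on simulated data in which all genes had the same spread and only genes with higher counts were changed. That spread was smaller than the common spread estimated from the real libraries. The check therefore does not cover data as variable as these, or a gene with counts as low as those of *Aldh5a1*. Level ratios were compared by exact permutation over samples.

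The genes and lists were chosen with earlier results of these data known. Text names the 8 listed genes, up to 5 tested genes per list with the smallest p-values, any called gene, and the 5 genes nearest to *Gad2*, and some genes of these lists are not reported here. *Glud1*, *Zdhhc17*, *Smox*, and ratios other than *Gad2* to *Abat*, were added after values were seen. The planned ratios with *Gad1* were not run or used *Gad2* alone. Alternatives were RLE and upper-quartile scaling, DESeq2 1.42.0, edgeR's likelihood ratio test, limma-voom (limma 3.58.1), other filters and thresholds, and leaving out each library.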

Additional observations from a re-analysis of the deposited data

How the results depend on the processing

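The number of genes called was 0 under RLE and upper-quartile scaling, limma-voom, both other filters on low counts, no threshold on the mean count, and an adjusted p-value under 0.1. DESeq2 called 60 genes and edgeR's likelihood ratio test 40, and leaving out each library in turn gave 0 to 4, with the 4 without control replicate 5. At an unadjusted p-value under 0.05 the main test had 1153 genes. None of the 4 measured GABA genes was called under any of these. *Gad2* and *Aldh5a1* kept their direction in all 14 settings, 2 of which, the ratios within libraries alike in *Xist* counts, were chosen after seeing the data and have no test. For both genes every *Hif1aCKO* library lay above both controls. Leaving out a library or comparing libraries alike in *Xist* counts therefore could not change the direction, and these settings do not test it.

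For *Abat* the log2 fold change was 0.031 under upper-quartile scaling, 0.018 with limma-voom, 0.003 with at least 10 counts in every library, and 0.223 within the libraries without *Xist* counts, and leaving out 1 library at a time gave -0.206 to 0.223. For *Aldh9a1* it was 0.079 within the libraries without *Xist* counts and -0.154 to 0.054 with 1 library left out. The log2 difference of the *Gad2* to *Abat* ratio was 1.57 without length correction and lay between 1.10 and 2.05 with 1 library left out. With 1 control library left, its spread was assumed to be like that of the other libraries. The share of *Gad2* in summed GAD level was not run because *Gad1* is not analysed here. No paired analysis was possible because the groups share only replicate number 5. With 19 to 90 counts of *Aldh5a1* in a library, counting error adds to its spread.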

Other observations

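Carriers of other transmitters had values for 4 of 8 listed genes. *Slc18a3*, the vesicular acetylcholine transporter, had 611 and 839 normalized counts in the controls against 285, 266, and 524 in the *Hif1aCKO* ones (log2 fold change -1.02, edgeR adjusted p = 0.599). *Slc18a2*, the vesicular monoamine transporter of noradrenergic neurons, had 5095 and 5742 in controls and 3870, 4401, and 2582 in *Hif1aCKO* libraries (log2 fold change -0.58, edgeR adjusted p = 0.621). *Slc18a1* and the glycine carrier *Slc6a9* overlapped between genotypes, with log2 fold changes of 0.01 and -0.13. Of the lists of markers of other cell types, motor neuron genes (4 of 6 with values) summed to 687 to 951 normalized counts in control and 298 to 538 in *Hif1aCKO* libraries, most of it from *Slc18a3* in each library. Chromaffin cell genes, of which all 6 had values, summed to 17716 to 24959 and 9719 to 14132, nearly all of it from *Th*, *Dbh*, *Chga*, and *Chgb*, of which *Th* and *Dbh* are also on the list of sympathetic neuron genes. Of the other two, *Pnmt*, which makes adrenaline, had 3 to 55 counts, and *Penk* had 0 counts in 3 of 5 libraries. Sums were at most 59.9 for sensory neuron genes (3 of 7 with values) and 13.6 for mesenchyme genes (3 of 7). They were at most 38.0 for endothelium genes (2 of 5) and 31.0 for erythroid genes (1 of 7, *Alas2*). Most listed genes of these types had no values, so the low sums do not show that such cells were absent. Of 8 genes of spinal inhibitory neurons, only *Gata2* had values. The part of these cell types in the values of *Gad2* was not tested.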
